A study of Mus musculus with 12 samples.

Results

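The genes described here encode the proteins of the mitochondrial ribosome. They were chosen by name: every gene of the deposited table whose symbol begins with Mrpl (large subunit) or Mrps (small subunit) followed by a number, pseudogenes left out. This gave 77 of 15140 genes, 48 of the large and 29 of the small subunit, and the 77 passed the filter on low counts. Liver polyA RNA had been sequenced in 6 KO and 6 WT libraries. KO libraries came from male mice lacking prohibitin 1 in adipocytes (Phb1adipo-/-), and WT libraries from male wild-type mice. Both groups ate a diet with 60 kcal% fat for 3 months, begun at 7 to 8 weeks of age. The promoter that drove the deletion is not given in the sources used here. The study asked how loss of this protein from fat cells alters the liver of mice on such a diet. The liver itself was not the target of the deletion, and Phb, which encodes prohibitin 1, had a log2 fold change of 0.15 ± 0.05 in liver (SE; adjusted p = 0.144 by edgeR with Benjamini-Hochberg, 6 libraries per group).

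Mitochondria keep a small genome of their own, and the messages it encodes are translated inside the organelle by a dedicated ribosome. The products are core subunits of the respiratory chain and of ATP synthase. The RNA parts of this ribosome are encoded by mitochondrial DNA, whereas all of its proteins are encoded by nuclear genes, made in the cytosol and imported. Many of the proteins have counterparts in bacterial ribosomes and others are found in mitochondria alone. In liver, a tissue rich in mitochondria, the respiratory chain these ribosomes serve supplies the energy for glucose, urea and lipid synthesis.

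Total counts ran from 30348123 to 40828767 per library. Levels are given as CPM, a library's counts rescaled to a common total after TMM scaling (trimmed mean of M-values, which corrects for differences in RNA composition). The 77 genes took 0.215% ± 0.0113 of counts in KO libraries and 0.203% ± 0.00381 in WT libraries (SD, n = 6 each). The tissue label fitted its markers: 9 of 10 hepatocyte markers were measured, and they summed to 79133.5 to 104522 CPM in KO and 79091.6 to 110205 CPM in WT libraries. Numbered libraries are replicates named in the titles. The labels do not tie a library to an animal, so the p-values rest on the variation among the 12 libraries, which may be technical.

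Most mitochondrial ribosomal protein genes stood slightly higher in KO livers, and 4 of them passed the test across the whole table. The log2 fold change of KO over WT was above 0 for 62 of 77 members (80.5%), against 50.6% of the 15000 genes tested. The median was 0.10 on the log2 scale for the members and 0.003 for all tested genes. Called genes, those with a Benjamini-Hochberg adjusted p under 0.05 in edgeR's two-sided quasi-likelihood test, were 4 of 77 members upward (5.19%), against 1.15% of tested genes called upward. In both directions together, 2.64% of tested genes were called. No member was called downward, against 1.49% of tested genes, while 2 members (2.60%) were below WT at an unadjusted p under 0.05, against 10.6% of tested genes. Upward, 21 members (27.3%) had an unadjusted p under 0.05, against 10.7% of tested genes. The differences were small: 56 members lay within 0.2 of 0 on the log2 scale, 21 lay above 0.2 (27.3%, against 19.4% of tested genes) and none lay below -0.2 (21.9% of tested genes). The 4 called members were also the 4 whose KO libraries all lay above all WT libraries (5.19% of members, against 1.29% of tested genes).

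**Figure D1:**
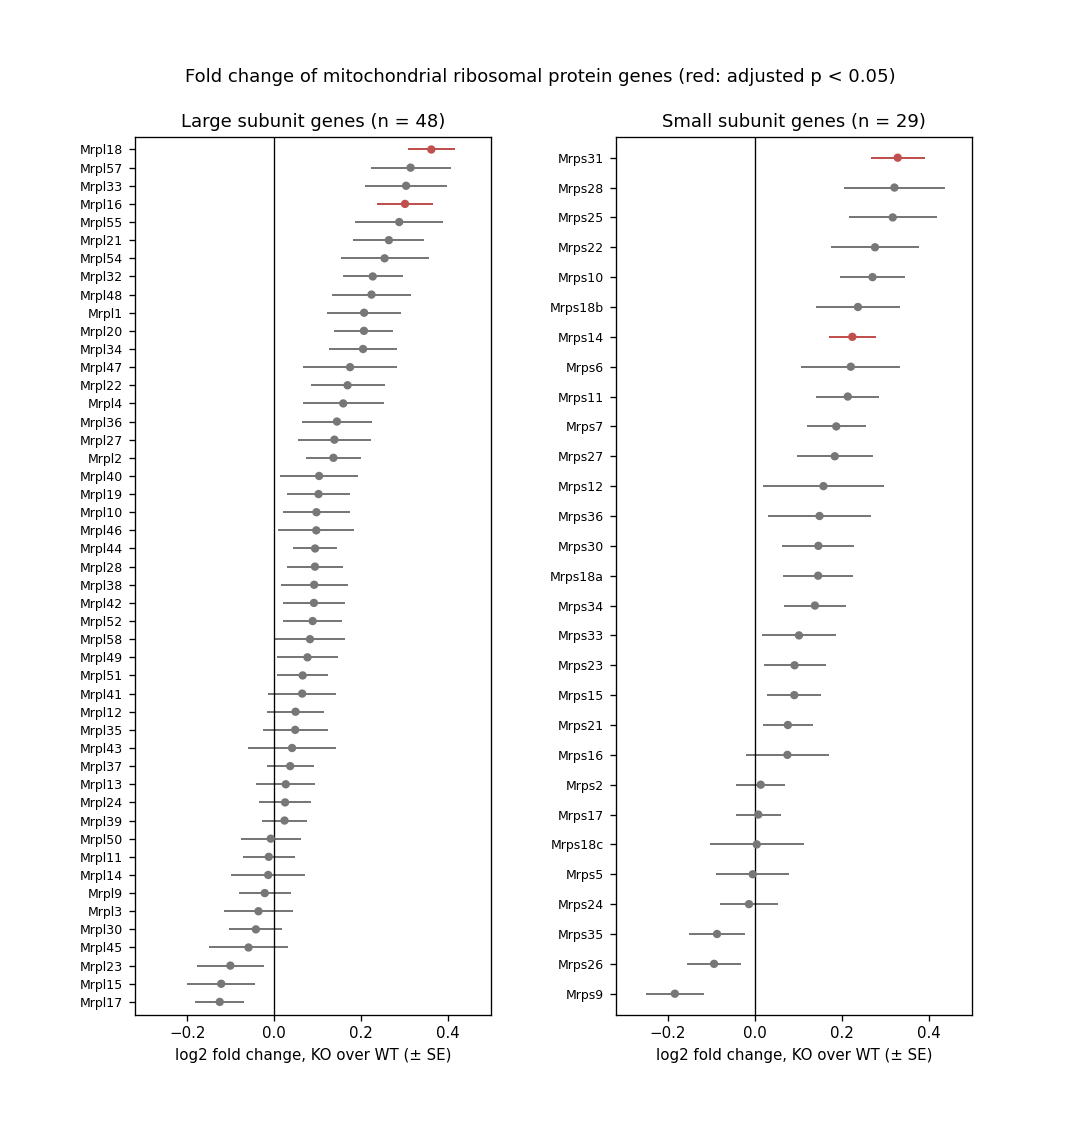
Log2 fold change of KO over WT for the 48 large subunit genes (left) and the 29 small subunit genes (right), ordered by value, with the SE as a horizontal line; red marks an adjusted p under 0.05. Points run from -0.12 to 0.36 in the large and from -0.18 to 0.33 in the small subunit, with 38 and 24 of them to the right of 0.

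In the large subunit, 38 of 48 genes were above 0 and the median log2 fold change was 0.09. Mrpl18 and Mrpl16 rose. Mrpl18 (ENSMUSG00000057388, chromosome 17, 12911349 to 12916345, minus strand, GRCm38) encodes a protein bound next to the central protuberance of the subunit, which in human cells has been reported to escort a cytosolic ribosomal RNA into mitochondria. Its lowest, median and highest levels were 37.3, 38.6 and 41.0 CPM in KO libraries, and 29.2, 29.7 and 33.4 CPM in WT libraries. Every KO library was above every WT library. The log2 fold change was 0.36 ± 0.05 (SE; adjusted p = 0.00861 by edgeR with Benjamini-Hochberg, 6 libraries per group). Mrpl18 kept its call with each of the 12 libraries left out in turn (edgeR, Benjamini-Hochberg adjusted p from 0.00614 to 0.0370). Its exons overlap those of Tcp1, a cytosolic chaperonin subunit gene on the opposite strand, by 141 bases, and the strand setting of the counting is not given in the sources used here, so reads in that stretch cannot be told apart. Tcp1 itself had a log2 fold change of 0.14 ± 0.06 (SE; adjusted p = 0.208 by edgeR with Benjamini-Hochberg).

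Mrpl16 (ENSMUSG00000024683, chromosome 19, 11770391 to 11774960, plus strand) encodes the counterpart of a bacterial protein near the site where tRNA enters the ribosome. It stood at 36.1, 38.7 and 43.1 CPM (lowest, median, highest) in KO libraries, and at 28.6, 31.8 and 33.5 CPM in WT libraries. The groups did not overlap. Its log2 fold change was 0.30 ± 0.06 (SE; adjusted p = 0.0288 by edgeR with Benjamini-Hochberg, 6 libraries per group). The call was lost when KO library 2 or 6 or WT library 2, 4 or 5 was left out, with an adjusted p of at most 0.0713 in these fits, and also with scaling by total counts only (0.0755; edgeR, Benjamini-Hochberg). The fold change stayed between 0.27 and 0.32 on the log2 scale with a library left out.

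The next large subunit genes by fold change did not pass the test. Mrpl57 stood at 19.4, 26.0 and 28.4 CPM (lowest, median, highest) in KO libraries and at 17.97, 20.70 and 22.02 CPM in WT libraries, with 5 of 6 KO libraries above the highest WT library and KO library 1 among the WT values. Its log2 fold change was 0.31 ± 0.09 (SE; adjusted p = 0.0808 by edgeR with Benjamini-Hochberg). Mrpl33 ran from 10.1 to 12.1 CPM in KO and from 8.05 to 10.8 CPM in WT libraries, and Mrpl55 from 15.3 to 18.7 CPM in KO and from 10.8 to 17.1 CPM in WT libraries. The groups overlapped for both, with log2 fold changes of 0.30 ± 0.09 and 0.29 ± 0.10 (SE; adjusted p = 0.0918 and 0.128 by edgeR with Benjamini-Hochberg). At the other end stood Mrpl17 (-0.12 ± 0.06), Mrpl15 (-0.12 ± 0.08) and Mrpl23 (-0.10 ± 0.08), followed by Mrpl45 (-0.06 ± 0.09) and Mrpl30 (-0.04 ± 0.06), all log2 fold changes with their SE. Mrpl23 and Mrpl45 encode proteins at the exit of the tunnel through which a new chain leaves the ribosome. Mrpl17, at 39.1 to 43.6 CPM in KO and 41.6 to 48.9 CPM in WT libraries, was the 1 large subunit gene below WT at an unadjusted p under 0.05 (adjusted p = 0.222 by edgeR with Benjamini-Hochberg).

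In the small subunit, 24 of 29 genes were above 0 and the median log2 fold change was 0.15. Mrps31 and Mrps14 rose. Mrps31 (ENSMUSG00000031533, chromosome 8, 22411361 to 22429665, plus strand) encodes a protein without a bacterial counterpart. Its lowest, median and highest levels were 29.9, 32.9 and 33.2 CPM in KO libraries, and 23.1, 26.3 and 27.6 CPM in WT libraries, without overlap. The log2 fold change was 0.33 ± 0.06 (SE; adjusted p = 0.0208 by edgeR with Benjamini-Hochberg, 6 libraries per group). The call was lost without KO library 6, WT library 2 or WT library 4, where the adjusted p reached 0.0576 (edgeR, Benjamini-Hochberg).

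Mrps14 (ENSMUSG00000058267, chromosome 1, 160195215 to 160202170, plus strand) encodes a protein of the head of the small subunit with a bacterial counterpart. It stood at 23.6, 25.5 and 26.9 CPM (lowest, median, highest) in KO libraries, and at 20.7, 21.8 and 22.9 CPM in WT libraries. The groups did not overlap. The log2 fold change was 0.22 ± 0.05 (SE; adjusted p = 0.0422 by edgeR with Benjamini-Hochberg, 6 libraries per group), close to the threshold, and the call held in 1 of the 12 fits with a library left out, the fit without KO library 1 (adjusted p up to 0.103 in the others, edgeR with Benjamini-Hochberg adjustment). It was also lost with the replicate block (adjusted p = 0.0793) and with scaling by total counts only (0.106; edgeR, Benjamini-Hochberg).

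**Figure D2:**
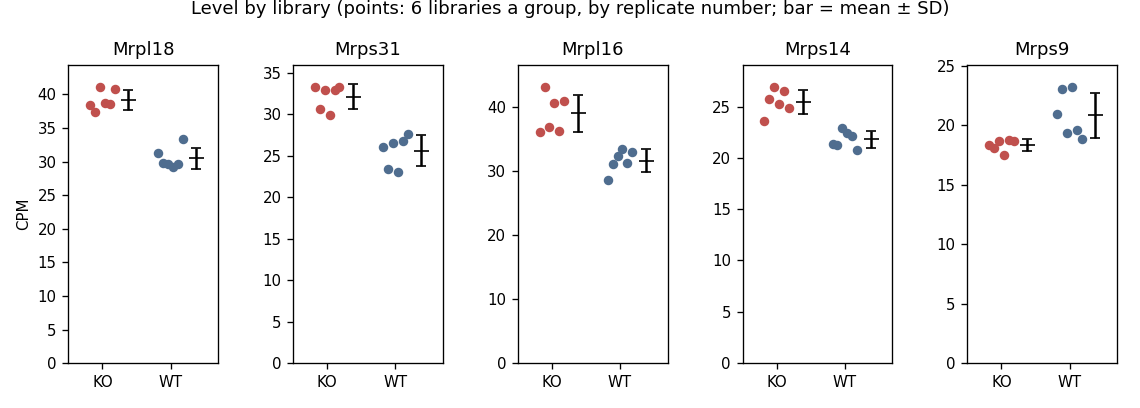
CPM in each library for the 4 called members and for Mrps9, KO left of WT, with the group mean ± SD beside the 6 points. The KO points of Mrpl18, Mrps31, Mrpl16 and Mrps14 all lie above the WT points, and those of Mrps9 (17.5 to 18.7 CPM) all lie below the WT points (18.8 to 23.2 CPM).

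A further 4 small subunit genes had log2 fold changes near those of Mrps31 without passing the test. Mrps28 had 0.32 ± 0.12, Mrps25 had 0.32 ± 0.10, Mrps22 had 0.28 ± 0.10 and Mrps10 had 0.27 ± 0.08 (SE; adjusted p between 0.0709 and 0.140 by edgeR with Benjamini-Hochberg). Mrps10 stood at 31.2, 35.1 and 36.8 CPM (lowest, median, highest) in KO libraries and at 24.5, 29.2 and 32.01 CPM in WT libraries, with 5 of 6 KO libraries above the highest WT library. Mutations of the human counterpart of Mrps22 cause mitochondrial disease. The exons of Mrps25 are shared over 69.8% of their length with Nr2c2, so its reads are uncertain. Mrps9, whose bacterial counterpart touches tRNA in the ribosome, had the lowest fold change of the small subunit. Its lowest, median and highest levels were 17.5, 18.5 and 18.7 CPM in KO libraries, and 18.8, 20.2 and 23.2 CPM in WT libraries. Every KO library was below every WT library, and the log2 fold change of -0.18 ± 0.07 did not pass the test (SE; adjusted p = 0.137 by edgeR with Benjamini-Hochberg). It was the 1 member with all KO libraries below all WT libraries (1.24% of tested genes). Mrps26 (-0.09 ± 0.06), Mrps35 (-0.09 ± 0.06), Mrps24 (-0.01 ± 0.07) and Mrps5 (-0.005 ± 0.083) made up the rest of the small subunit genes below 0.

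The symbols do not follow the structure of the ribosome in every case. Structures of the mammalian ribosome place the proteins of Mrps18a and Mrps30 on the large subunit, and the product of Mrps36 is known as a part of the oxoglutarate dehydrogenase complex. With Mrps18a and Mrps30 moved, the large subunit median stayed at 0.09, and the remaining 26 small subunit genes had a median of 0.12. Mrps36 itself had a log2 fold change of 0.15 ± 0.12 (SE; adjusted p = 0.502 by edgeR with Benjamini-Hochberg). Mrpl58, a peptidyl-tRNA hydrolase that can free stalled ribosomes, had 0.08 ± 0.08 (adjusted p = 0.595 by edgeR, Benjamini-Hochberg). Split by descent, 36 of the 47 members with a bacterial counterpart were above 0 (median 0.10), as were 23 of the 27 without one (median 0.09). A further 3 members were assigned to neither group, and all 3 were above 0 (median 0.15). These groupings were made after the values were seen and were not tested.

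**Figure D3:**
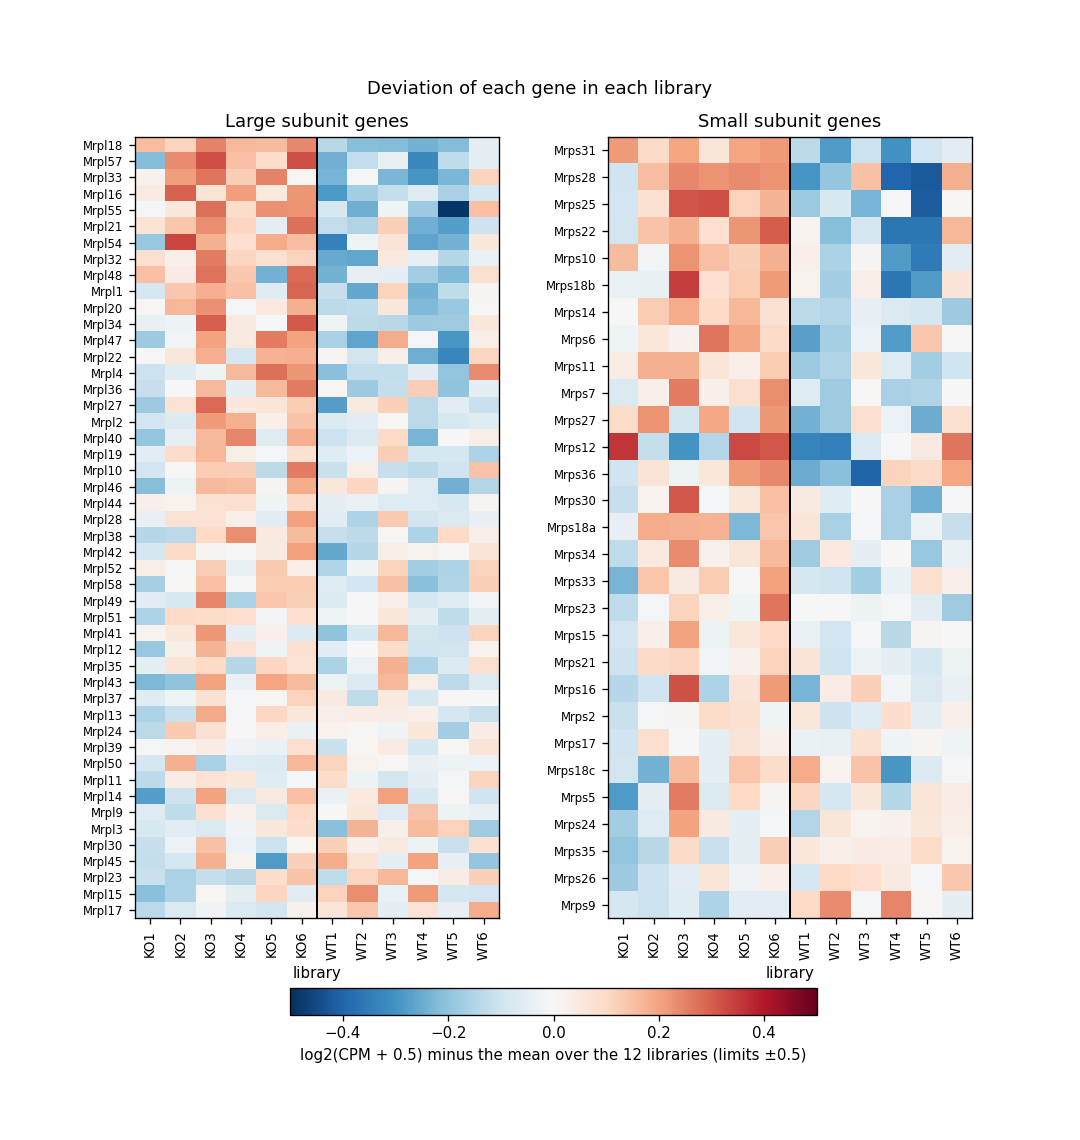
Deviation of each gene from its mean over the 12 libraries, as log2(CPM + 0.5), with genes in rows ordered by fold change and libraries in columns, KO left of the black line and WT right of it. Columns KO3 and KO6 are red over most rows and column KO1 is blue over many, so the KO libraries differ among themselves as well as from WT.

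On the TMM-scaled CPM, many members had their extremes in the same libraries. Summed over the large subunit, levels were 1464 ± 83.8 CPM in KO and 1379 ± 45.2 CPM in WT libraries (SD, n = 6 each), 6.19% higher in KO. Over the small subunit they were 693 ± 37.5 CPM in KO and 642 ± 20.1 CPM in WT libraries, 8.04% higher in KO. KO libraries 3 and 6 had the highest sums, 1552 and 1557 CPM in the large and 737 and 731 CPM in the small subunit. KO library 1 had 1332 and 636 CPM, inside the WT ranges of 1326 to 1437 and 624 to 669 CPM, so the groups overlapped in both sums. This order of libraries depends on the scaling. As a plain share of all counts, KO library 2 stood highest for the members with 0.231%, against 0.218% in KO library 3 and 0.219% in KO library 6. KO library 1, with 0.1976%, then lay just below the lowest WT library (0.1977%). By TMM-scaled CPM, 15 of the 48 large subunit genes were highest in KO library 3 and 14 in KO library 6, and of the 29 small subunit genes 12 and 7. Among the KO libraries, number 1 held the most lowest values, for 9 large and 8 small subunit genes. Without KO library 6 the large subunit median was 0.06, and without KO library 3 the small subunit median was 0.09. Across all 12 fits with a library left out, 54 members stayed above 0, 9 stayed below 0 and 14 showed both signs.

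**Figure D4:**
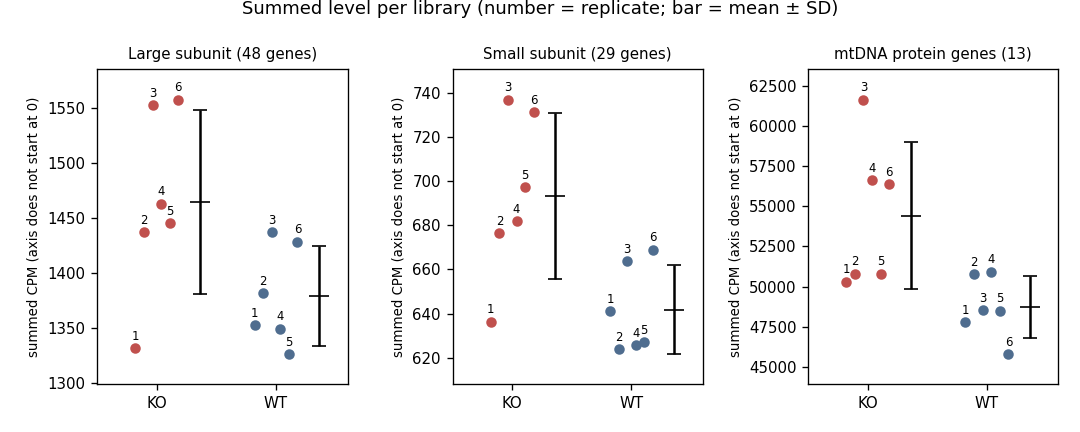
Summed TMM-scaled CPM per library for the large subunit, the small subunit and the 13 protein genes of mitochondrial DNA, KO left of WT, each point labelled with its replicate number and the group mean ± SD drawn beside the points. The axes do not start at 0. KO libraries 3 and 6 stand at the top of both subunit panels, and KO library 1 lies within the WT points.

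Members differed far more from each other in level than between the genotypes. In plain CPM, the mean level over the 12 libraries ran from 9.99 (Mrpl43) to 98.6 (Mrpl12) in the large subunit. It ran from 4.45 (Mrps6) to 65.1 (Mrps7) in the small subunit. Levels were also divided by exon length, the total length of a gene's annotated exons over all its transcripts, so the annotation enters this range and order. They then ran from 1.38 (Mrpl33) to 64.4 (Mrpl12) CPM per kilobase in the large subunit, a 46.8-fold range. In the small subunit they ran from 1.504 (Mrps25) to 34.9 (Mrps21) CPM per kilobase, a 23.2-fold range. Mrpl12, part of the stalk that recruits translation factors and also known to bind the mitochondrial RNA polymerase, had 86.2 to 111 CPM in KO and 91.8 to 105 CPM in WT libraries, with a log2 fold change of 0.05 ± 0.07 (SE; adjusted p = 0.713 by edgeR with Benjamini-Hochberg). It was followed in level by Mrpl34 (51.1) and Mrpl2 (37.99), and in the small subunit Mrps21 was followed by Mrps7 (31.4) and Mrps24 (26.7), all in CPM per kilobase. Of these, Mrpl34 had a log2 fold change of 0.21 ± 0.08 and Mrps7 of 0.19 ± 0.07 (SE; adjusted p = 0.162 and 0.140 by edgeR with Benjamini-Hochberg). Mrps7 ran from 61.6 to 77.5 CPM in KO and from 57.3 to 65.0 CPM in WT libraries, with 5 of 6 KO libraries above the highest WT library. The coefficient of variation over the 12 libraries had a median of 9.49% for large and 10.1% for small subunit genes, against 17.9% for all tested genes. These sets were not matched for level, on which this measure depends. The 15000 tested genes reach lower levels than the members, and 12851 genes had at least 1 CPM in 6 libraries.

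Proteins of this ribosome also carry other names, and 5 such genes were examined. None passed the test. Gadd45gip1 (0.13 ± 0.11), Chchd1 (0.12 ± 0.09) and Ptcd3 (0.07 ± 0.06) had log2 fold changes above 0, and those of Aurkaip1 (0.01 ± 0.08) and Dap3 (-0.03 ± 0.08), a GTP-binding protein of the small subunit, were within 1 SE of 0.

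Among the factors that build this ribosome and work with it, 1 gene was called, in lists of 28, 14 and 20 tested genes. Of all tested genes, 2.64% were called in both directions together, so 1 call in these lists stands near that share. Of 28 assembly factors, 19 were above 0 and none was called (median log2 fold change 0.04). Trub2, a pseudouridine synthase, had 0.25 ± 0.08, and Malsu1, which keeps an immature large subunit from joining the small one, had -0.19 ± 0.08 (SE; adjusted p = 0.0837 and 0.209 by edgeR with Benjamini-Hochberg). Of 14 translation factors measured, 12 were above 0 and none was called (median 0.08). The elongation factors Tsfm and Gfm1 had 0.27 ± 0.08 and 0.17 ± 0.07 (SE; adjusted p = 0.0808 and 0.180 by edgeR with Benjamini-Hochberg). Of 20 genes that charge mitochondrial tRNA, 17 were above 0 (median 0.11) and 1 was called. This was Yars2, the tyrosyl-tRNA synthetase, at 18.2, 19.3 and 20.3 CPM (lowest, median, highest) in KO libraries and 14.5, 15.3 and 17.2 CPM in WT libraries. Its groups did not overlap, and it rose by 0.31 ± 0.06 on the log2 scale (SE; adjusted p = 0.0264 by edgeR with Benjamini-Hochberg), a call kept in 8 of the 12 fits with a library left out (highest adjusted p 0.0682) and lost with the replicate block. The arginyl-tRNA synthetase gene Rars2 had 0.25 ± 0.08 (adjusted p = 0.121 by edgeR with Benjamini-Hochberg).

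Genes that maintain and express mitochondrial DNA lay on both sides of 0: 7 of 19 measured were above it, with a median of -0.03 and no call. Trmt10c, a subunit of mitochondrial RNase P, had 0.34 ± 0.10 and the RNA-degrading enzyme gene Pnpt1 had 0.19 ± 0.06 (log2 fold change with SE; adjusted p = 0.0808 and 0.104 by edgeR with Benjamini-Hochberg). The 13 protein genes of mitochondrial DNA, whose messages this ribosome translates, were all above 0 with a median of 0.25, and none was called. They summed to 54422 ± 4562 CPM in KO and 48711 ± 1925 CPM in WT libraries (SD, n = 6 each), and the groups overlapped. KO library 3, high for the members, was the highest here too with 61646 CPM. The 2 ribosomal RNA genes of mitochondrial DNA, which encode RNA parts of this ribosome, had log2 fold changes of -0.13 and 0.06, neither called. In these polyA libraries they summed to 4468 ± 836 CPM in KO and 4654 ± 1251 CPM in WT (SD, n = 6 each). Of the 61 nuclear genes of respiratory complexes I to IV, 59 were above 0 (median 0.12). The 1 called gene was Ndufa12, a complex I subunit gene, against 1.15% of tested genes called upward. Ndufa12 had a log2 fold change of 0.25 ± 0.06 (SE; adjusted p = 0.0404 by edgeR with Benjamini-Hochberg). Its call was kept in 3 of the 12 fits with a library left out (highest adjusted p 0.106) and lost with total counts only (0.0858; edgeR, Benjamini-Hochberg).

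The cytosolic ribosome served as a comparison. Of its 77 protein genes in the table, 63 were above 0 (81.8%), none was called, and the median log2 fold change was 0.05. Their sums were 10206 ± 461 CPM in KO and 9874 ± 660 CPM in WT libraries (SD, n = 6 each), 3.36% higher in KO. KO library 5 and WT library 6 held the highest of these sums, 10929 and 11056 CPM, so the order of libraries was not that of the mitochondrial ribosome. The difference between the cytosolic and the mitochondrial ribosome was not tested.

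**Figure D5:**
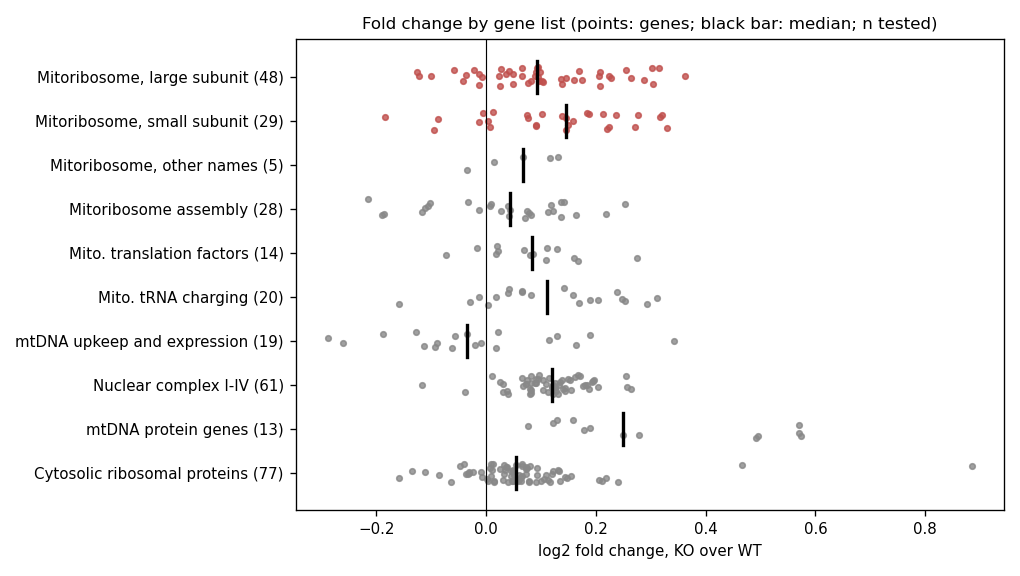
Log2 fold change of KO over WT for each gene of 10 lists, with 1 point per gene, the median as a black bar and the number tested in brackets. The medians of the large (0.09) and small (0.15) subunit genes lie near those of the nuclear respiratory chain genes (0.12), and that of the genes for mitochondrial DNA upkeep and expression lies at -0.03.

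Among 9 regulators of mitochondrial gene programmes, 4 were above 0 and 1 was called, against 2.64% of tested genes called in both directions together. Gabpa, the DNA-binding subunit of an ETS factor known to act on promoters of nuclear genes for mitochondrial proteins, fell. It stood at 38.9, 45.0 and 48.8 CPM (lowest, median, highest) in KO libraries, and at 49.8, 54.8 and 57.1 CPM in WT libraries, with no overlap. The log2 fold change was -0.29 ± 0.07 (SE; adjusted p = 0.0360 by edgeR with Benjamini-Hochberg, 6 libraries per group), and the call held in 3 of the 12 fits with a library left out (highest adjusted p 0.0924) and was lost with total counts only (0.0639). Nrf1, Ppargc1a and Esrra had log2 fold changes of 0.09 ± 0.11, -0.06 ± 0.25 and -0.19 ± 0.12 (SE), none called. Myc, a driver of ribosome production, stood at 1.94, 3.49 and 29.5 CPM (lowest, median, highest) in KO libraries and at 1.93, 2.49 and 2.53 CPM in WT libraries. The highest value was that of KO library 1. Myc had a log2 fold change of 1.68 ± 0.66 (SE; adjusted p = 0.176 by edgeR with Benjamini-Hochberg). Without that library it was 0.41.

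Promoter sequence was read from RefSeq (GRCm38.p6) as windows from 250 bases before to 50 bases after a gene's start, which matched 68 of the 77 members with 74 windows. Exact matches were sought on both strands to 5 motifs, and the shares below are of windows, members against all 32851 windows. All windows came from 27025 genes, against 15140 in the deposited table, so they include genes without a value in liver here. The sets were not matched for expression. The ETS or GABPA motif CCGGAAGT was in 16.2% of member windows and 3.89% of all. The YY1 motif AAGATGGCG was in 10.8% and 1.40%, the palindromic NRF1 motif (capitals in the Mrpl9 stretch) in 4.05% and 0.971%, and the SP1 motif GGGGCGGGG in 20.3% and 11.5%. The ERR motif TCAAGGTCA was in none of the member windows and in 0.423% of all. Cytosolic ribosomal protein genes had the ETS motif in 16.4% and the YY1 motif in 7.46% of windows. They had the NRF1 motif in 2.99%, the SP1 motif in 10.45% and the ERR motif in none. A gene can have more than 1 window. The 15 member windows with the SP1 motif came from 13 genes, and the 5 cytosolic windows with the YY1 motif from 3 genes. These are matches to letters, which show neither binding nor activity.

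The called members are shown first, since the results turn on them. Capitals mark a motif match. The Mrpl16 stretch is chr19:11770241-11770390 (plus strand), the Mrps14 stretch is chr1:160195065-160195214 (plus strand) and the Mrps31 stretch is chr8:22411310-22411339 (plus strand), each free of annotated exons and without a match to any of the 5 motifs. Annotated exons of Mrpl18 transcripts that start further upstream, and of Tcp1, cover much of the Mrpl18 window, and the 30 bases around its ETS match, chr17:12916312-12916341 (minus strand), are given.
Mrpl16: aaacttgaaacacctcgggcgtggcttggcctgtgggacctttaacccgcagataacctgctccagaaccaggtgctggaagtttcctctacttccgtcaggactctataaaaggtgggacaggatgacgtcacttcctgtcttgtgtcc
Mrps14: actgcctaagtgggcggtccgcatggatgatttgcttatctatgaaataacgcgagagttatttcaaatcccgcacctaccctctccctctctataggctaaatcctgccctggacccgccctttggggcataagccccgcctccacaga
Mrps31: gtctccgtttcctaccggaatccaaaagga
Mrpl18: actgaaaacgCCGGAAGTagggggctgcgg

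Members outside the called group show the ETS and NRF1 letters close to the start, outside annotated exons. They are Mrpl48 at chr7:100583132-100583191 (minus strand), Mrpl43 at chr19:45006443-45006480 (minus strand), Mrps22 at chr9:98601680-98601716 (minus strand), Mrps27 at chr13:99344711-99344770 (plus strand) and Mrpl9 at chr3:94443283-94443317 (plus strand). In Mrpl48 and Mrps27 the ETS letters are on the opposite strand and read ACTTCCGG, and Mrpl9 holds the NRF1 letters.
Mrpl48: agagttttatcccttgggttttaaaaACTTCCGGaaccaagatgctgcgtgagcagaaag
Mrpl43: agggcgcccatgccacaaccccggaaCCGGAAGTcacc
Mrps22: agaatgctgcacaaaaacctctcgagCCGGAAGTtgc
Mrps27: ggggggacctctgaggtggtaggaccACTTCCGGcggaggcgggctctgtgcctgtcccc
Mrpl9: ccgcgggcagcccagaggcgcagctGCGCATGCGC
The fold changes of these 5 genes spanned both signs, with log2 values of 0.22 ± 0.09 for Mrpl48, 0.04 ± 0.10 for Mrpl43, 0.28 ± 0.10 for Mrps22, 0.18 ± 0.09 for Mrps27 and -0.02 ± 0.06 for Mrpl9 (SE), and none was called.

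Many members start close to another gene, in some pairs with a gap between the starts and in others with the starts overlapping. A start here is the outer annotated end of the gene, which can differ from the RefSeq start of the promoter windows. Within 1000 bases, 29 of 77 (37.7%) had the start of a gene on the opposite strand, against 13.8% of the 12939 protein-coding genes in the table. The share was 43.8% in the large and 27.6% in the small subunit. Of the 27 tested neighbours, 20 had a log2 fold change above 0 (median 0.14, range -0.48 to 0.62). The 1 called upward was Rab6a (0.28, edgeR, Benjamini-Hochberg adjusted p = 0.0298), against 1.15% of tested genes called upward. Its exons overlap those of Mrpl48 by 708 bases. The start taken here for Mrpl48 (chr7:100608301) is not that of its promoter window (chr7:100583081-100583380), so this pairing rests on the outer annotated end. Mrpl46 and Mrps11, both members, are a pair of neighbours that overlap by 173 exon bases and had 0.10 ± 0.09 and 0.21 ± 0.07. As for Mrpl18 and Tcp1, reads in such shared stretches cannot be told apart. Exons of 23 members overlap another gene of the table, and 18 members have a close copy in the annotation, 7 of them with a copy in the table. In the 39 members with neither an overlap nor a close copy, 31 were above 0 with a median of 0.09, and 3 of the 4 called members (Mrps31, Mrpl16 and Mrps14) were among them.

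Markers of liver macrophages were lower in KO. All 10 measured macrophage markers were below 0 (median log2 fold change -0.74). Against 1.49% of tested genes called downward, 3 of these 10 were called, Adgre1 (-0.87), Vsig4 (-0.79) and Cd5l (-1.10). These calls held in 8, 5 and 10 of the 12 fits with a library left out, with adjusted p up to 0.0688, 0.0887 and 0.0506 (edgeR, Benjamini-Hochberg); each was lost without WT library 2 and without WT library 4, and that of Vsig4 also with the replicate block (0.0644). The list summed to 178, 212 and 339 CPM (lowest, median, highest) in KO libraries and to 310, 372 and 478 CPM in WT libraries, and none of its genes was at 0 in all libraries. The 5 skeletal muscle markers were below 0 without a call and summed to 4.00 to 11.4 CPM in KO and 4.77 to 32.4 CPM in WT libraries. The 1 adipocyte marker with a value here, Cfd, ran from 0.863 to 41.0 CPM in KO and from 2.98 to 18.1 CPM in WT libraries. The 5 endothelial and 3 neutrophil markers were below 0 and 4 of 5 stellate cell markers above it, none called, and 1 of 4 lymphocyte markers (Lck) was called downward. The Lck call held in 4 of the 12 fits with a library left out (adjusted p up to 0.0967 by edgeR with Benjamini-Hochberg) and was lost with the replicate block (0.0697). In such bulk samples, fewer cells of a type and less RNA per cell cannot be told apart. In KO libraries 1 to 6 the macrophage sum was 211, 186, 218, 339, 178 and 213 CPM in this order, with that of KO library 4 inside the WT range. The part of these cells in the members' values was not tested.

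The authors' deposited table gave the members nearly the same fold changes and, for the 4 called members, wider errors than DESeq2 run here. The sources used here do not state the samples or the model behind those errors, so the adjusted p of that table and the ones computed here cannot be set against each other. In the authors' deposited table, 1 of the 77 members (Mrps31) had an adjusted p under 0.05 (0.00801). Of all its genes with an adjusted p, 834 of 14947 (5.58%) did, in both directions together, a larger share than among the members. For Mrpl18 the authors' deposited table listed a log2 fold change of 0.37 with an SE of 0.15 and an adjusted p of 0.124. DESeq2 run here on the 12 libraries gave Mrpl18 a log2 fold change of 0.36 ± 0.06 (SE) and a Benjamini-Hochberg adjusted p of 8.45e-08, and called 10 members upward in all, against 4.01% of the genes to which it gave an adjusted p.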

How the data were processed

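Liver polyA RNA of 12 libraries (6 KO, 6 WT by title) was deposited as a table of unnormalized whole-number counts per gene. Beside them the authors deposited their own comparison, per the file headers: a mean signal, a log2 fold change with its error, a score, and p-values before and after adjustment. The submitters' processing notes name GRCm38 as build, with FastQC and Trimmomatic for the reads, then HISAT2, SAMtools, featureCounts and DESeq2. Annotation release, strandedness and the handling of shared reads are not stated.

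Of 15344 rows, 204 repeats of a gene with equal counts were dropped. Library totals were 30348123 to 40828767. None of the 30 within-group pairs of libraries was equal within sampling noise (chi-square divided by its degrees of freedom was 38.1 to 242). Counts were tested two-sided with edgeR 4.0.16 (R 4.3.3; TMM, filterByExpr, robust quasi-likelihood fit) in 15000 genes, with Benjamini-Hochberg adjustment over all of these and a threshold of 0.05. An SE is the absolute log2 fold change over the square root of F. Exon lengths and positions came from GENCODE M21, and close copies from blastn 2.17.0 on coding sequences (at least 95% identity over 100 bases).

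Alternatives were DESeq2 1.42.0, limma-voom (3.58.1), RLE size factors, scaling by total counts only, a minimum of 1 CPM in 6 libraries or no filter, no robust estimation, a replicate block and each library left out. The members and all lists were chosen with earlier results of these data known. Named were the called members, in each subunit the 5 highest and 5 lowest fold changes, the 3 highest levels per length and the lowest, members with known roles elsewhere, and called or smallest-p genes of the other lists. Mrpl48, Mrpl43, Mrps27, Mrpl9, Mrpl46, Mrps11, Mrps18a, Mrps30, Nrf1, Ppargc1a, Esrra and Rab6a were named after their values were seen.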

Additional observations from a re-analysis of the deposited data

Results flagged for a closer look

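For 50 named genes and both subunit sums, each group of 6 libraries was examined for 1 library far from the rest, by the gap to its nearest neighbour as a share of the group's range on the log2(CPM + 0.5) scale. A library was counted where the share passed the 95% critical value of Dixon's test, and 6 of 104 groups had one, where chance alone gives about 5.2. Mrps28 in KO (0.746), Aurkaip1 in KO (0.637) and Lck in KO (0.659) had KO library 1 as the low one. Myc in KO (0.695) had KO library 1 as the high one, at 4.91 against 1.29 to 2.39 in the other KO libraries. Malsu1 in KO (0.707) had KO library 3 as the high one. Mrps24 in WT (0.793) had WT library 1 as the low one, at 5.16 against 5.32 to 5.37. Lck, a lymphocyte marker, was called downward (log2 fold change -1.31).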

How the results depend on the processing

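The whole table gave 396 called genes. With total counts only it gave 257, with DESeq2 1232, with the replicate block 374, and with 1 library left out 25 to 700. It gave 46 without WT library 2, 25 without WT library 4, 86 without KO library 6, 89 without WT library 5, 235 without KO library 2 and 700 without WT library 6. Called large subunit genes were 2, with 1 under total counts only, 6 under DESeq2 and 1 to 3 with a library left out. Called small subunit genes were 2, with 1 under total counts only, 1 under the replicate block, 4 under DESeq2 and 0 to 2 with a library left out. The cause was not tested. Mrpl18 kept its call in every alternative run. The subunit medians kept their sign, from 0.06 to 0.12 (large) and from 0.09 to 0.17 (small) with a library left out. Aurkaip1 changed sign under total counts only (-0.000233) and ran from -0.0260 to 0.0716 with a library left out. Mrps24 ran from -0.0716 to 0.0188, Mrps5 from -0.0748 to 0.0472 and Dap3 from -0.0997 to 0.00343. Same-numbered KO and WT libraries deviated together with r from -0.23 to 0.37, over 0.1 in 4 of 6 pairs, and 2 of 6 KO libraries were closest to their own number, so the numbers were not taken as pairs. The lowest count of a member in a library was 118.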
